A study of Danio rerio with 14 samples.

Results

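The genes described here are the subunits of the phagocyte NADPH oxidase and a set of granulocyte genes, measured by bulk RNA-seq in uninjured zebrafish hearts with and without *il11a* overexpression. The list names *cybb*, *cyba*, *ncf1*, *ncf4*, *rac2*, *mpx*, *lyz*, *npsn* and *csf3r*, and all 9 symbols matched a single identifier among the 32520 genes of each count table. They were listed by name, with no threshold on a measured value, at a time when earlier results of these data, including the wide spread of *npsn* at 7 mpt, were known.

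Every fish carried *actb2:loxp-BFP-stop-loxp-il11a*, a transgene in which a floxed stop cassette sits between the *actb2* promoter and *il11a*. In *il11a*OE fish *cmlc2:creER* was added, so that tamoxifen removes the cassette in cardiomyocytes, the cells in which the *cmlc2* promoter is active. Controls were littermates with the *actb2* transgene and no CreER. Both genotypes received 5 µM tamoxifen for 24 h as adults of up to a year of age, and each library was made from a pool of hearts. Hearts were taken at 7 days post treatment (dpt), with 3 libraries for each genotype, or at 7 months post treatment (mpt), with 4 libraries for each genotype. The 7 mpt libraries carry a letter, F for replicates 1 and 2 and M for replicates 3 and 4 of each genotype, whose meaning the sources used here do not define.

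The phagocyte oxidase is a membrane enzyme that passes electrons from NADPH to oxygen to make superoxide, which phagocytes use to kill engulfed microbes. Its catalytic core is a heterodimer of the proteins encoded by *cybb* and *cyba*, and it works only once cytosolic subunits, such as those of *ncf1* and *ncf4*, and the small GTPase Rac2 join it. Neutrophils and macrophages both use it. Neutrophils also carry granules with myeloperoxidase (*mpx*), lysozyme (*lyz*) and, in fish, the astacin-type protease nephrosin (*npsn*), and they depend on the receptor for granulocyte colony-stimulating factor (*csf3r*) for their production and survival.

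Each library held 61691132 to 80703699 fragments counted on genes at 7 dpt and 73275884 to 130058630 counted reads at 7 mpt. *il11a* (ENSDARG00000037859) was at 41.6 to 53.7 CPM (counts scaled by library size, the usual per-library unit) in control and 325 to 386 CPM in *il11a*OE at 7 dpt, and at 41.0 to 90.5 CPM in control and 262 to 433 CPM in *il11a*OE at 7 mpt. The groups thus followed their labels at both time points. The heart marker *myl7*, which encodes an atrial and ventricular myosin light chain in zebrafish, was abundant in every library, from 4676 CPM in an *il11a*OE library of 7 mpt to 22029 CPM in a control library of 7 mpt. Reads were counted as fragments at 7 dpt and as single mates at 7 mpt, so a level of one time point is not set against that of the other. P-values measure the spread between these pools.

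Of the 9 genes, 8 had enough counts to be tested at 7 dpt, and 7 of them were higher in *il11a*OE at an adjusted p under 0.05 (edgeR quasi-likelihood test with Benjamini-Hochberg adjustment over all genes). Over all 19647 genes tested at that time point, 20.2% were higher by the same criterion. At 7 mpt all 9 were tested and 6 were higher, against 14.2% of the 18689 genes tested. In either direction 37.2% of all genes passed at 7 dpt and 26.4% at 7 mpt. None of the 9 was lower at either time point. The change was over 4-fold for 3 of the 9 at 7 dpt (*ncf4*, *cybb* and *csf3r*), against 4.22% of all genes higher by that much, and for all 6 genes called at 7 mpt, against 6.94%. The 5 oxidase genes were higher at both time points. *csf3r* was also called at both, but its control libraries of 7 mpt alone would not have met the filter on low counts, and neither would those of *lyz*. Of the 7 genes whose control libraries met it at 7 mpt, 5 were called, against 13.7% higher among all such genes. Of the 3 granule genes, *mpx* passed the test at 7 dpt and had a log2 fold change of 3.33 at 7 mpt that did not (adjusted p = 0.129), *npsn* passed at neither time point, and *lyz* was too low to test at 7 dpt and did not pass at 7 mpt. Once the letter was added to the 7 mpt model, all 3 passed and 9 of the 9 genes were called. Among these, *csf3r* and *lyz* were again tested only through their *il11a*OE libraries. In the model without the letter 4928 of all genes were called in either direction. Fits with other settings that kept every library, the letter model among them, called 4484 to 6901. Some of these fits used another filter and so tested another number of genes. The share of all genes called by the letter model alone is not given. For each gene called in the model without the letter, every *il11a*OE library lay above every control library in CPM. The same was so for 28.2% of all genes tested at 7 dpt and 17.0% at 7 mpt. A change in the number of cells of a type and a change in RNA per cell cannot be told apart in such bulk libraries.

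*cybb* (ENSDARG00000056615, chromosome 11 from 29795155 to 29818866 on GRCz11) encodes the electron-carrying subunit of the oxidase. At 7 dpt it was at 6.21, 5.95 and 4.29 CPM in the control libraries and at 22.6, 26.9 and 32.4 CPM in the *il11a*OE libraries. The lowest *il11a*OE library was thus several times above the highest control library. The mean went from 5.48 ± 1.04 to 27.3 ± 4.89 CPM (SD, n = 3 each), a log2 fold change of 2.32 (SE, the standard error of the log2 fold change, 0.19, edgeR adjusted p = 0.000378). At 7 mpt the control libraries held 8.26, 5.28, 16.1 and 3.85 CPM and the *il11a*OE libraries 38.3, 36.6, 129.6 and 94.6 CPM, in the order of replicates 1 to 4. The groups did not overlap, and within *il11a*OE both M libraries exceeded both F libraries. This amounted to a log2 fold change of 3.16 (SE 0.58, edgeR adjusted p = 0.00417). The exons of *cybb* overlap those of *XK* on the same strand, and reads falling on both genes were left out of the counts.

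*cyba* (ENSDARG00000018283, chromosome 18 from 31073265 to 31075619) encodes the small partner that stabilizes the *cybb* product in the membrane. Its control libraries were at 5.12, 7.32 and 5.07 CPM and its *il11a*OE libraries at 15.2, 14.4 and 17.7 CPM at 7 dpt. The log2 fold change of 1.44 (SE 0.17, edgeR adjusted p = 0.00138) was the smallest among the 7 genes called at 7 dpt. At 7 mpt *cyba* was at 3.87, 3.24, 3.54 and 3.17 CPM in control and at 13.9, 13.7, 19.0 and 17.9 CPM in *il11a*OE. These were the tightest libraries of any of the 9 genes at 7 mpt, with an SD of 0.320 CPM around a control mean of 3.46 CPM and of 2.72 CPM around an *il11a*OE mean of 16.1 CPM (n = 4 each). At 7 mpt the log2 fold change was 2.22 (SE 0.17, edgeR adjusted p = 5.19e-05), again the smallest of the genes called.

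*ncf1* (ENSDARG00000033735, chromosome 5 from 61432541 to 61445697) encodes the organizer that is phosphorylated when phagocytes are activated and then docks the cytosolic complex on the membrane. The 7 dpt control libraries were at 10.01, 5.76 and 8.36 CPM and the *il11a*OE libraries at 34.8, 27.9 and 33.5 CPM, a log2 fold change of 1.99 (SE 0.21, edgeR adjusted p = 0.000960). A single fit of all 14 libraries of both time points gave a log2 fold change of 2.01 with an adjusted p of 0.0564. The 7 mpt control libraries held 8.59, 4.34, 18.3 and 3.96 CPM and the *il11a*OE libraries 28.1, 28.2, 126.5 and 107.7 CPM. Here the M libraries of *il11a*OE averaged 4.16 times the F libraries, and control replicate 3 was 2.13 times the next control library. At 7 mpt *ncf1* thus had a log2 fold change of 3.05 (SE 0.70, edgeR adjusted p = 0.0119).

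*ncf4* (ENSDARG00000040812, chromosome 22 from 29204885 to 29252049) encodes the smallest of the cytosolic subunits, which binds the lipid phosphatidylinositol 3-phosphate on phagosomes. It was low in control hearts, at 1.1002, 0.850 and 1.07 CPM at 7 dpt, and stood at 5.87, 6.50 and 6.75 CPM in *il11a*OE. Its libraries agreed closely within each group, with an SD of 0.454 CPM around a mean of 6.37 CPM in *il11a*OE (n = 3). The log2 fold change of 2.66 (SE 0.16, edgeR adjusted p = 0.000108) was the largest of the 5 oxidase genes at 7 dpt. At 7 mpt it went from 1.34, 1.07, 2.17 and 1.104 CPM in control to 10.5, 10.98, 17.8 and 11.8 CPM in *il11a*OE hearts (log2 fold change 3.17, SE 0.30, edgeR adjusted p = 0.000119). The exons of *ncf4* overlap *pvalb7* on the opposite strand, and the counting did not use strand.

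*rac2* (ENSDARG00000038010, chromosome 3 from 29510818 to 29544039) encodes a small GTPase of blood cells that activates the oxidase and is needed for neutrophil migration in zebrafish. At 7 dpt it was at 5.91, 7.47 and 5.01 CPM in control and at 21.5, 18.6 and 22.8 CPM in *il11a*OE, a log2 fold change of 1.78 (SE 0.17, edgeR adjusted p = 0.000561). Control hearts of 7 mpt held 3.92, 4.47, 5.05 and 3.57 CPM, so control replicate 3 lay within 1.13 times of the next control library. *il11a*OE hearts of 7 mpt held 27.8, 27.6, 59.8 and 50.2 CPM, with no overlap with control. *rac2* had a log2 fold change of 3.28 at 7 mpt (SE 0.29, edgeR adjusted p = 9.33e-05).

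**Figure D1:**
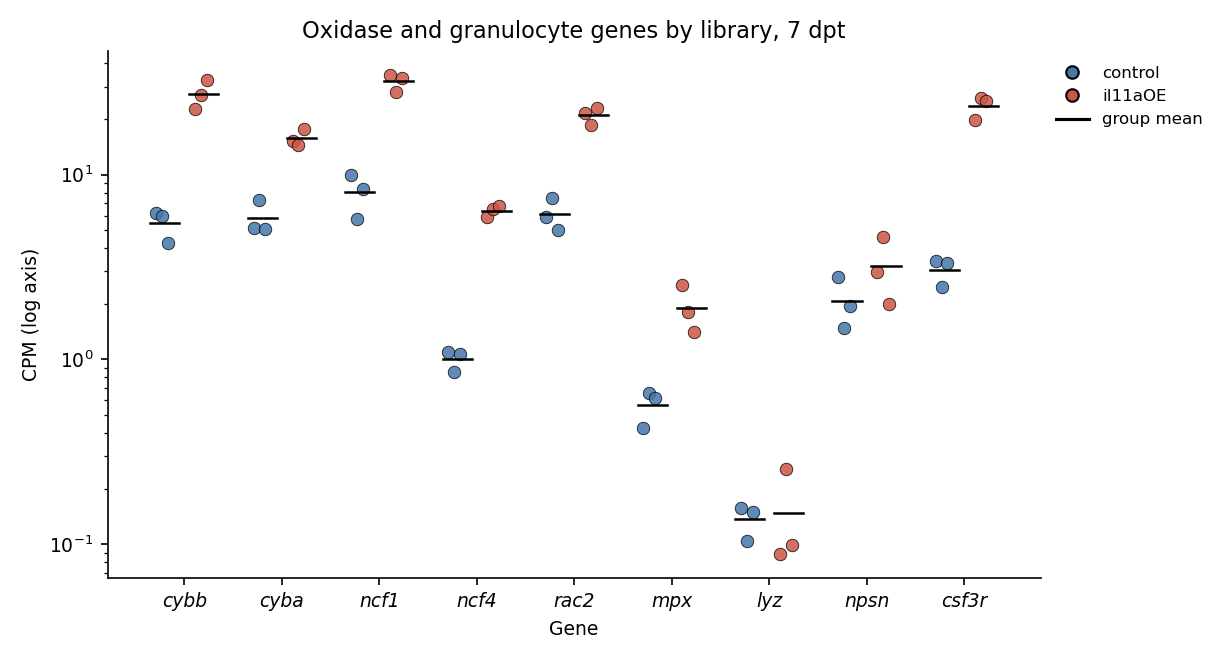
CPM of each of the 9 genes (log axis) in the 3 control and 3 *il11a*OE libraries of 7 dpt, with points for libraries and bars for group means. The 5 oxidase genes, *mpx* and *csf3r* show no overlap between the groups, while *npsn* and *lyz* overlap.

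A list of 26 further oxidase isoforms, partners and regulators, 18 of which matched the tables, was called at about the share of all genes. At 7 dpt 3 of 14 genes tested were higher and 2 lower (35.7% in either direction, against 37.2% of all genes), with a median log2 fold change of 0.05, where the median over all genes tested was 0.02. The genes higher at 7 dpt were *arhgdig* and *arhgdia*, which encode inhibitors of small GTPases (log2 fold changes 1.17 and 0.47), and *rac1a*, a widely expressed Rac gene (0.27). *arhgdia* and *rac1a* passed the test in 10 and 8 of 14 alternative fits. The genes lower at 7 dpt were *prkcda*, a protein kinase C isoform, and *hvcn1*, the voltage-gated proton channel that offsets the charge moved by the oxidase, which fell by 1.09 and 0.75 on the log2 scale and passed in 13 and 14 of the 14 alternative fits. Without control replicate 3 or without *il11a*OE replicate 1 the number called at 7 dpt was 3 in place of 5. At 7 mpt 2 of 15 genes tested were higher and 1 lower, against 14.2% and 12.2% of all genes, with a median of -0.09 against 0.03 over all genes tested. *arhgdig* (log2 fold change 2.17) and *cybc1*, whose human counterpart is a chaperone of the *cybb* product (0.63), were higher, and the Ras-related gene *rap1b* fell by 0.58 on the log2 scale. Without *il11a*OE replicate 1 the number called at 7 mpt was 1 in place of 3, as *arhgdig* alone kept its call. The other NADPH oxidase catalytic genes did not pass the test where tested, and *nox4* was at most 0.984 CPM and *nox1* at most 1.104 CPM in any library.

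*mpx* (ENSDARG00000019521, chromosome 10 from 7778870 to 7785945) encodes the granule peroxidase by which neutrophils are commonly identified in zebrafish. It was low in control hearts at 7 dpt, with 27, 38 and 37 counts (0.424, 0.659 and 0.617 CPM), and reached 227, 120 and 127 counts in *il11a*OE (2.51, 1.81 and 1.40 CPM). The groups did not overlap, and the log2 fold change was 1.75 (SE 0.31, edgeR adjusted p = 0.00560). In the single fit of all 14 libraries the log2 fold change was 1.77 and the adjusted p 0.507. At 7 mpt the control libraries were at 0.582, 1.99, 30.3 and 0.538 CPM and the *il11a*OE libraries at 14.2, 20.4, 167.6 and 132.5 CPM. Control replicate 3 thus exceeded both F libraries of *il11a*OE, and the groups overlapped. The log2 fold change was 3.33 (SE 1.44) and the edgeR adjusted p 0.129.

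*lyz* (ENSDARG00000057789, chromosome 24 from 24035863 to 24038800) encodes lysozyme C, which breaks down bacterial cell walls. At 7 dpt it had 10, 6 and 9 counts in control and 8, 17 and 9 counts in *il11a*OE, too few to test. At 7 mpt it was at 0.0448, 0.153, 6.48 and 0.170 CPM in control and at 2.60, 3.11, 30.6 and 35.0 CPM in *il11a*OE. The pattern over libraries was that of *mpx*, with control replicate 3 above both F libraries of *il11a*OE and the M libraries of *il11a*OE highest. *lyz* had a log2 fold change of 3.39 (SE 1.55, edgeR adjusted p = 0.149). Its control libraries alone would not have met the filter on low counts at 7 mpt. Exons of *abcc13* on the same strand overlap *lyz*.

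*npsn* (ENSDARG00000010423, chromosome 7 from 38653481 to 38659477) encodes a protease of fish neutrophils and had the widest spread of the 9 genes at 7 mpt, relative to the mean, in control and *il11a*OE alike. At 7 dpt the control libraries were at 2.78, 1.47 and 1.95 CPM and the *il11a*OE libraries at 2.96, 4.62 and 2.00 CPM, with overlap and a log2 fold change of 0.62 (SE 0.37, edgeR adjusted p = 0.227). At 7 mpt the control libraries held 1.03, 2.21, 103.5 and 2.01 CPM, that is 92, 202, 6968 and 142 counts. The *il11a*OE libraries held 39.1, 42.3, 589 and 296 CPM, or 5886, 4568, 75262 and 24114 counts. For *npsn* the log2 fold change was 3.15 (SE 1.62) and the edgeR adjusted p 0.197.

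**Figure D2:**
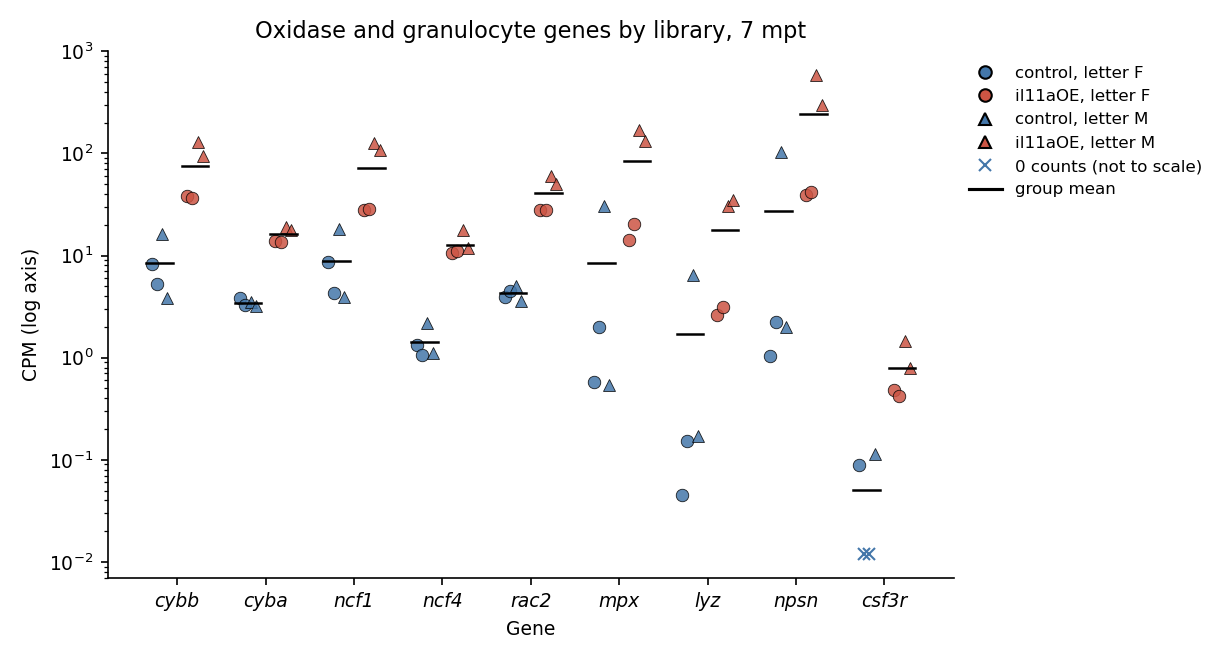
CPM of each of the 9 genes (log axis) in the 4 control and 4 *il11a*OE libraries of 7 mpt, with circles for libraries lettered F, triangles for libraries lettered M, bars for group means and crosses for libraries with 0 counts. A control library lettered M lies above both *il11a*OE F libraries for *mpx*, *lyz* and *npsn*, and both *il11a*OE M libraries lie above both F libraries for all 9 genes.

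Control replicate 3 of 7 mpt stood apart for all 3 granule genes. It was at 15.2 times the next control library for *mpx*, 38.2 times for *lyz* and 46.8 times for *npsn*. For the oxidase genes its ratio to the next control library was far smaller, from 0.913 for *cyba* through 1.13 for *rac2* and 1.62 for *ncf4* to 1.95 for *cybb* and 2.13 for *ncf1*. Its summed level of 9 pan-leukocyte genes was 102 CPM, where the other controls were at 78.9, 89.1 and 84.9 CPM. Its summed level of 20 macrophage genes was 199.6 CPM, the lowest of the 4 controls, the others being at 358, 322 and 275 CPM. Of a list of 45 other granulocyte genes, 32 were tested at 7 mpt, and control replicate 3 was the highest control library for 20 of these, as it was for 23.7% of all genes tested. Among them only *illr4*, a lectin receptor of zebrafish myeloid cells, exceeded the next control by more than 4 times there, as 0.546% of all genes tested did. What part the cells of this pool have in these values was not tested.

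Without control replicate 3 the 3 granule genes passed the test at 7 mpt. That library was singled out for its high values of these same genes, so the values without it are a description and no test. *mpx* then had a log2 fold change of 6.32 (SE 1.18, edgeR adjusted p = 0.00773), *lyz* of 7.19 (SE 1.32, adjusted p = 0.00716) and *npsn* of 7.11 (SE 1.24, adjusted p = 0.00587). The number of the 9 genes called became 8, since *csf3r* was no longer called (adjusted p = 0.0501). Over all genes, leaving out 1 library of 7 mpt gave 3865 to 4773 calls, against 4928 with every library. With the library letter as a covariate and all 8 libraries kept, the granule genes also passed, at edgeR adjusted p values of 0.0333 for *mpx*, 0.0174 for *lyz* and 0.03001 for *npsn*, with log2 fold changes of 3.51, 3.90 and 3.83. Of these, *lyz* met the filter on low counts only through its *il11a*OE libraries, so a difference was a condition of its test. Over all the alternatives that kept every library, the adjusted p ranged from 0.0272 to 0.255 for *mpx*, 0.0174 to 0.275 for *lyz* and 0.0132 to 0.327 for *npsn*.

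The letter divided the *il11a*OE libraries for every one of the 9 genes, since both M libraries were above both F libraries. The M mean was 11.5 times the F mean for *lyz*, 10.9 times for *npsn* and 8.67 times for *mpx*. For the oxidase genes this ratio ran from 1.34 for *cyba* and 1.38 for *ncf4* to 1.98 for *rac2*, 2.99 for *cybb* and 4.16 for *ncf1*. The same division was seen for 7 of 8 pan-leukocyte genes tested, 19 of 32 other granulocyte genes and 1 of 20 macrophage genes, and for 19.3% of all genes tested. In summed CPM the pan-leukocyte genes were at 435 and 408 in the F and at 780 and 624 in the M libraries of *il11a*OE, the macrophage genes at 1704 and 1647 in F and at 1479 and 1324 in M, and the epicardial and fibroblast genes at 4387 and 4888 in F and at 2508 and 2505 in M.

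In control hearts the division did not hold, because the other M library (replicate 4) was at the level of the F libraries for the granule genes. The effect of *il11a*OE was then compared between the letters, each with 2 libraries a group. Within the F libraries the log2 fold changes were 3.74 for *mpx*, 4.83 for *lyz* and 4.65 for *npsn*, and within the M libraries 3.28, 3.30 and 3.07. The oxidase genes had 2.47 in F and 3.49 in M for *cybb*, 2.12 and 3.39 for *ncf1*, 1.96 and 2.46 for *cyba*, 3.15 and 3.18 for *ncf4*, and 2.72 and 3.67 for *rac2*. The contrast of the effects between letters called none of the 9 genes, nor any gene of the 18689 tested, with edgeR or with limma-voom, while DESeq2 called 190 genes and none of the 9. At an unadjusted p under 0.05 edgeR gave 1192 genes, among them *rac2* alone of the 9, with an effect smaller by 0.95 on the log2 scale in F (difference -0.95, SE 0.30, adjusted p = 0.638).

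**Figure D3:**
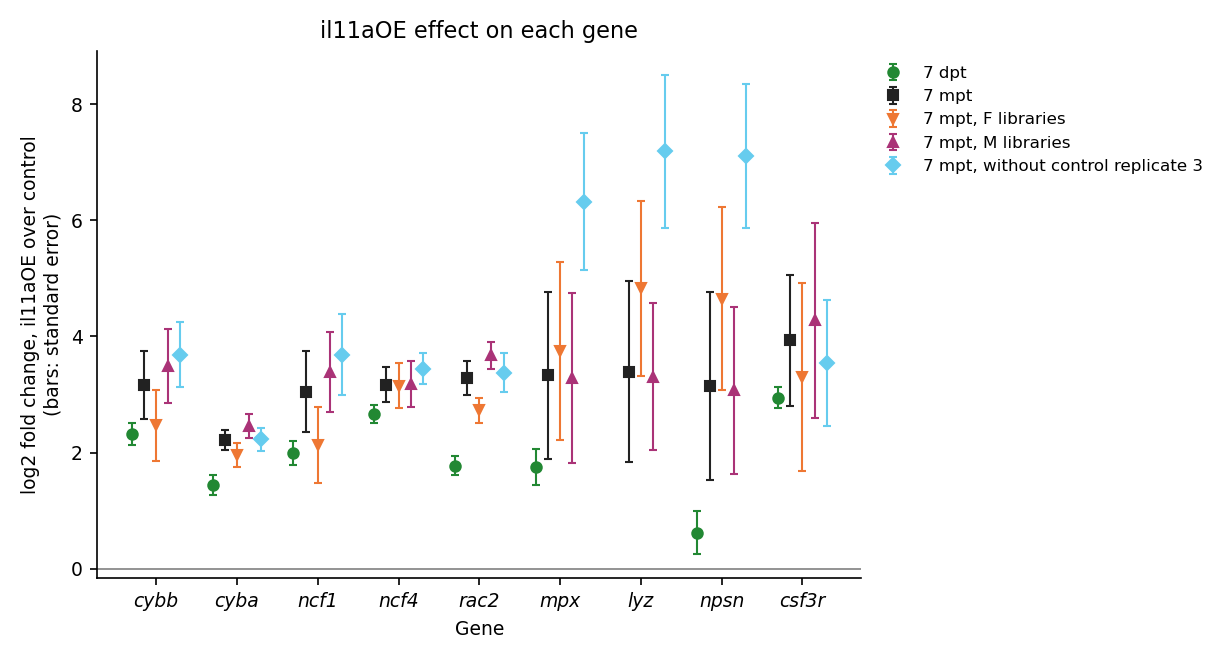
Log2 fold change of *il11a*OE over control for each of the 9 genes, with bars for the SE, at 7 dpt, at 7 mpt, within the F and the M libraries of 7 mpt, and at 7 mpt without control replicate 3. All values lie above 0, *lyz* has none at 7 dpt, and leaving out control replicate 3 moves *mpx*, *lyz* and *npsn* to values over 6.

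*csf3r* (ENSDARG00000045959, chromosome 16 from 3103182 to 3127749) showed the largest change of the 9 genes at 7 dpt. Its control libraries were at 3.41, 2.46 and 3.32 CPM and its *il11a*OE libraries at 19.7, 26.1 and 25.1 CPM, a log2 fold change of 2.95 (SE 0.18, edgeR adjusted p = 0.000112), or 7.71-fold. At 7 mpt *csf3r* was nearly undetected in control, with 8, 0, 0 and 8 counts, and had 72, 46, 188 and 64 counts in *il11a*OE. It passed the filter on low counts at 7 mpt through the *il11a*OE libraries, so a difference was a condition of its being tested. The log2 fold change was 3.93 (SE 1.12, edgeR adjusted p = 0.0278), and the call was lost without *il11a*OE replicate 3 (adjusted p = 0.0895), without *il11a*OE replicate 4 (0.0570) and without control replicate 3 (0.0501).

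The ligand went the other way. *csf3a* (ENSDARG00000102211), which encodes one of the zebrafish granulocyte colony-stimulating factors, was at 7.83, 5.48 and 6.12 CPM in control and at 1.49, 2.38 and 2.23 CPM in *il11a*OE at 7 dpt. It fell by 1.67 on the log2 scale (SE 0.23, edgeR adjusted p = 0.00214). At 7 mpt it was at 7.18, 6.33, 8.08 and 5.29 CPM in control and at 2.91, 0.722, 3.01 and 2.07 CPM in *il11a*OE, and fell by 1.63 (SE 0.40, edgeR adjusted p = 0.0140). Every *il11a*OE library lay below every control library at both time points. The call was kept in all 14 alternative fits of 7 dpt and all 18 of 7 mpt. The second ligand gene, *csf3b*, had 0 to 8 counts in any library and was not tested.

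The other granulocyte genes were read from a list of 45 granule, receptor and regulator genes, of which 34 matched the tables. At 7 dpt 19 of 30 genes tested were higher and 3 lower, against 20.2% and 17.1% of all genes, with a median log2 fold change of 1.37. At 7 mpt 21 of 32 were higher and 1 lower, against 14.2% and 12.2% of all genes, with a median of 2.63. Among those whose control libraries alone met the filter on low counts, 17 of 26 were higher at 7 dpt and 19 of 25 at 7 mpt. Of all such genes 19.7% were higher at 7 dpt and 13.7% at 7 mpt. Among those higher at 7 dpt with the smallest p were *spi1a* and *spi1b*, which encode transcription factors that drive myeloid fate (log2 fold changes 2.23 and 2.36), *cxcr4b*, a chemokine receptor that retains neutrophils (1.97), and the Myc gene *mych* (1.57). At 7 mpt they were *fcer1gl*, an Fc receptor adaptor (3.47), *timp2b*, a metalloproteinase inhibitor (4.77), *cebpb*, a transcription factor of stress granulopoiesis in mice (2.66), and *spi1a* (2.59). Several of these genes are expressed by macrophages or non-blood cells as well, so the list does not separate granulocytes from other cells.

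Genes of this list that were lower at 7 dpt were *csf3a*, *cfd*, which encodes the complement protease factor D, and the leukotriene receptor gene *ltb4r2a*. *ltb4r2a* was under 1.2 CPM in every library, overlapped between the groups and passed the test in 5 of 13 alternative fits. *cfd* fell from 282 ± 42.7 to 165 ± 39.4 CPM at 7 dpt (SD, n = 3 each, log2 fold change -0.77, SE 0.20, edgeR adjusted p = 0.0235), a call lost without control replicate 1 (0.0696), control replicate 3 (0.0626) or *il11a*OE replicate 3 (0.0736). At 7 mpt it went from 71.2 ± 15.5 to 176 ± 18.6 CPM (SD, n = 4 each, log2 fold change 1.31, SE 0.17, edgeR adjusted p = 0.000583).

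**Figure D4:**
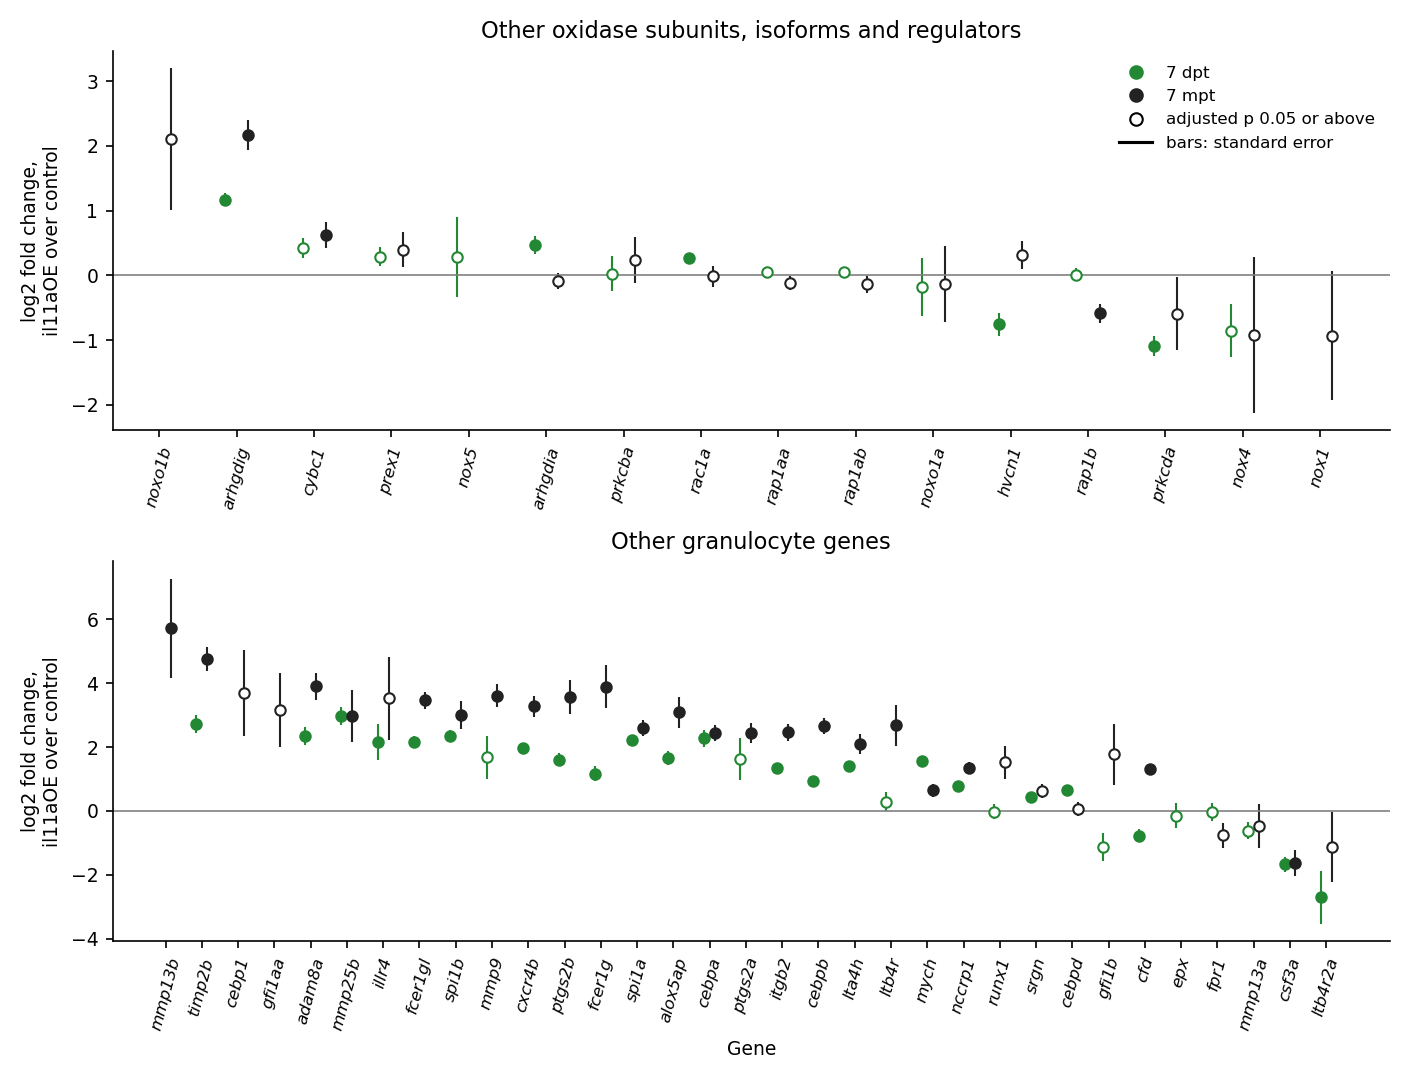
Log2 fold change of *il11a*OE over control, with SE bars, for further oxidase genes (top) and further granulocyte genes (bottom) tested at 7 dpt (green) or 7 mpt (black), with filled points where the adjusted p was under 0.05. Most oxidase genes outside the phagocyte subunits lie near 0, most granulocyte genes lie above 0, and *csf3a* lies below 0 at both time points.

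Most markers of other leukocytes were also higher in *il11a*OE, although the macrophage genes did not follow the division by letter described above. Of 8 pan-leukocyte genes tested, 7 were higher at each time point (median log2 fold change 1.78 at 7 dpt and 2.64 at 7 mpt), and of 20 macrophage genes 17 were higher at each (median 1.99 and 2.70), where 20.2% of all genes were higher at 7 dpt and 14.2% at 7 mpt. Control libraries alone met the filter on low counts for 16 of the macrophage genes at 7 mpt, and 14 of those were higher. Of all such genes 13.7% were. The pan-leukocyte sum went from 67.6 to 91.8 CPM in control to 291 to 319 CPM in *il11a*OE at 7 dpt, and from 78.9 to 102 CPM to 408 to 780 CPM at 7 mpt. *ptprc*, the common leukocyte phosphatase, had log2 fold changes of 1.77 and 2.67, the actin regulators *lcp1* and *coro1a* 2.48 and 2.51, and 2.24 and 3.24, and the macrophage gene *mpeg1.1* 1.97 and 2.74. The part of these cells in the changes of the oxidase genes was not tested. The 4 cardiomyocyte genes tested were lower at both time points, *myl7* by 0.69 and 1.54 on the log2 scale. Of all genes 17.1% were lower at 7 dpt and 12.2% at 7 mpt. Of the lymphoid genes 9 of 15 tested were higher at 7 dpt and 11 of 16 at 7 mpt, but many of these were tested only because of their level in *il11a*OE. Control libraries alone met the filter for 7 lymphoid genes at 7 dpt and 5 at 7 mpt, of which 4 and 3 were higher. Of all such genes 19.7% and 13.7% were higher. Of 7 red cell genes 5 were lower at 7 dpt, against 17.1% of all genes, with a median log2 fold change of -1.43. At 7 mpt the median was -0.16 and edgeR called 0 of the 7, with 1 at an unadjusted p under 0.05.

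To set the 9 genes beside this rise, each was divided by the summed counts of the 9 pan-leukocyte genes in the same library. At 7 dpt *csf3r* and *ncf4* kept a clear difference. *csf3r* went from 3.71%, 3.64% and 3.90% of the pan-leukocyte counts in control to 6.55%, 8.99% and 7.86% in *il11a*OE, and *ncf4* from 1.198%, 1.26% and 1.25% to 1.95%, 2.24% and 2.11%. *cybb*, *ncf1*, *rac2* and *mpx* overlapped on this scale. *npsn* lay below control in every *il11a*OE library (2.18% to 3.03% in control, 0.625% to 1.59% in *il11a*OE), as did *lyz* (0.154% to 0.176%, and 0.0294% to 0.0880%) and *cyba* (5.58% to 10.8%, and 4.95% to 5.56%). The *lyz* values rest on 6 to 17 counts a library. For *cyba* the groups nearly touched, at 5.578% in the lowest control and 5.560% in the highest *il11a*OE library.

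At 7 mpt *rac2* alone lay above control in every *il11a*OE library on this scale, at 4.96%, 5.02%, 4.93% and 4.203% in control and 6.40%, 6.78%, 7.67% and 8.05% in *il11a*OE. *cyba* alone lay below, at 3.45% to 4.91% in control and 2.43% to 3.35% in *il11a*OE. For the granule genes control replicate 3 was the highest library of all, *npsn* being at 101% of its pan-leukocyte counts, where the *il11a*OE libraries were at 8.99%, 10.4%, 75.5% and 47.5% and the other controls at 1.30% to 2.48%. These ratios are descriptions of single libraries and were not tested. The share of all genes that separate on this scale was not computed.

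**Figure D5:**
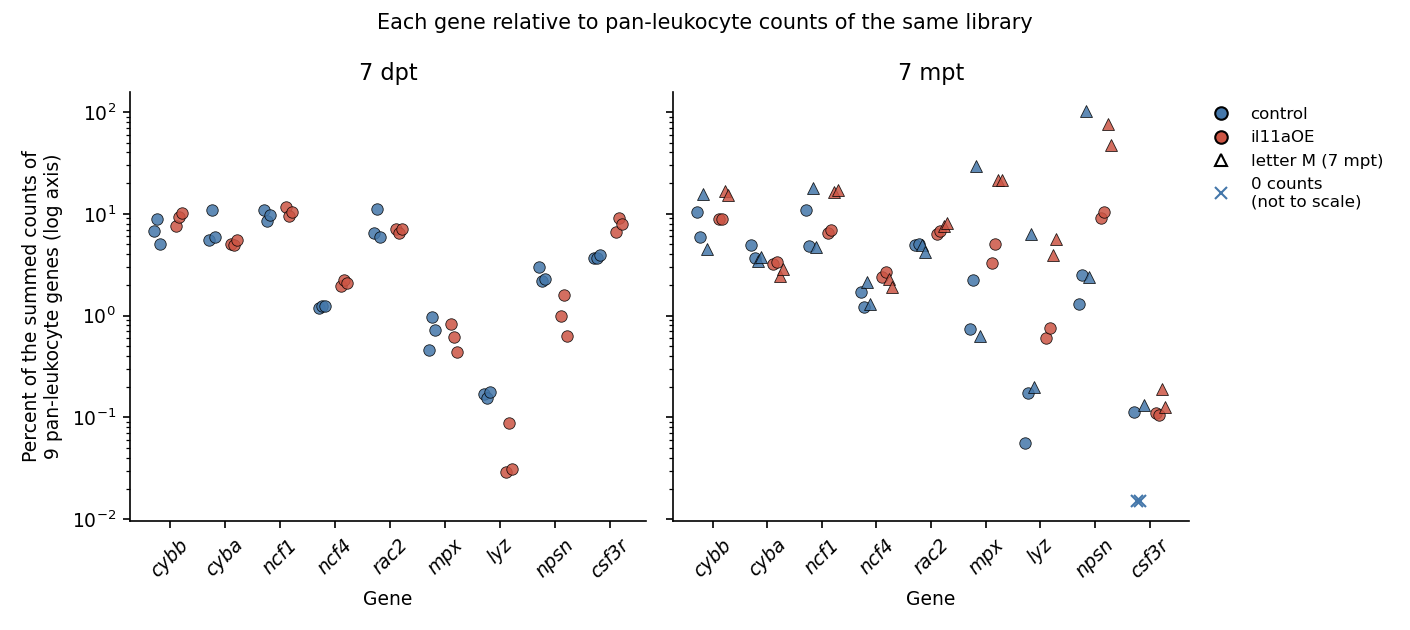
Counts of each of the 9 genes as a percent of the summed counts of 9 pan-leukocyte genes in the same library (log axis), at 7 dpt and 7 mpt, with circles and triangles as single libraries and crosses at 0 counts. *csf3r* and *ncf4* lie above control at 7 dpt and *rac2* at 7 mpt, while control replicate 3 of 7 mpt is the highest library for *mpx*, *lyz* and *npsn*.

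The effect at 7 mpt was then compared with that at 7 dpt in a fit of all 14 libraries. Only *rac2* differed among the 9 genes, with an effect greater by 1.501 on the log2 scale at 7 mpt (SE 0.37, edgeR adjusted p = 0.0399). Over all 21317 genes tested in this contrast, 2.14% were greater and 2.27% smaller at 7 mpt. The *rac2* call was lost with limma-voom (adjusted p = 0.0587) and without any one library of 7 dpt, control replicate 4 of 7 mpt or *il11a*OE replicate 3 or 4 of 7 mpt (0.0524 to 0.110). The differences of the other genes ranged from 0.50 for *ncf4* (SE 0.37, adjusted p = 0.498) to 3.34 for *lyz* (SE 2.32, adjusted p = 0.465). Without control replicate 3 of 7 mpt, *lyz* and *npsn* differed too, by 7.15 (SE 1.55, adjusted p = 0.0277) and 6.52 (SE 1.29, adjusted p = 0.0198), which made 3 genes. As that library was singled out for its high values of *lyz* and *npsn*, these differences are a description and no test.

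Among the 49 other oxidase and granulocyte genes in this contrast 3 passed the test, all with a more positive effect at 7 mpt. They were *cfd* (difference 2.07, SE 0.28, adjusted p = 0.00172), *cebpb* (1.71, SE 0.32, adjusted p = 0.0107) and *timp2b* (2.03, SE 0.49, adjusted p = 0.0356). This share was little above the 4.41% of all genes tested that were called in either direction. The *timp2b* call was lost without any one library of 7 dpt (0.0523 to 0.105), and those of *cfd* and *cebpb* were kept with each of the 14 libraries left out.

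Per kilobase of exon, the order of the 9 genes within *il11a*OE hearts differed between the time points. At 7 dpt *cyba* (15.3 ± 1.68 CPM per kilobase) and *ncf1* (15.02 ± 1.72) led with overlapping ranges, followed by *csf3r* (8.80 ± 1.28), *cybb* (6.38 ± 1.14), *rac2* (4.28 ± 0.438), *ncf4* (2.88 ± 0.205), *npsn* (1.95 ± 0.812), *mpx* (0.508 ± 0.150) and *lyz* (0.245 ± 0.155). Neighbouring ranges overlapped for *csf3r* with *cybb*, for *ncf4* with *npsn* and for *mpx* with *lyz*, and did not for the other neighbours below *ncf1*. Library by library, the first gene of each of these overlapping pairs was above the second. At 7 mpt *npsn* led at 148 ± 159.6 CPM per kilobase, then *ncf1* (34.1 ± 24.3), *lyz* (29.6 ± 28.8), *mpx* (22.3 ± 20.8), *cybb* (17.5 ± 10.6), *cyba* (15.6 ± 2.63), *rac2* (8.45 ± 3.32), *ncf4* (5.77 ± 1.54) and *csf3r* (0.294 ± 0.179). These means pool the letters, and the order depended on the letter. Within the F libraries (means of 2) *npsn* (24.9) was followed by *cyba* (13.4), *ncf1* (13.2), *cybb* (8.74) and *rac2* (5.66), with *lyz* (4.74) and *mpx* (4.61) seventh and eighth. Within the M libraries *npsn* (271) was followed by *ncf1* (54.9), *lyz* (54.4), *mpx* (39.97), *cybb* (26.2) and *cyba* (17.9). Over all 4 libraries the range of each gene overlapped that of the next in the pooled order, except for *cyba*, above *rac2*, and *csf3r*, below all the others. Within every single library *npsn* was also above *ncf1*, and *rac2* above *ncf4*. The other neighbours with overlapping ranges changed order between libraries. *csf3r* was thus the third gene in *il11a*OE hearts at 7 dpt and the last at 7 mpt. The time points are separate sets of libraries with reads counted in different ways, which cannot be told apart from time here. Control hearts showed a shift the same way, with *csf3r* at rank 6 at 7 dpt (1.14 ± 0.195) and rank 9 at 7 mpt (0.0189 ± 0.0221). *npsn* also led in control hearts of 7 mpt (16.6 ± 31.1), with control replicate 3 at 63.3.

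The variation among libraries of a group, rather than the difference between groups, was described by centring log2 CPM within each of the 4 groups over the 14 libraries. The granule genes varied together, with a Pearson r of 0.98 for *lyz* with *npsn*, 0.95 for *mpx* with *npsn* and 0.93 for *mpx* with *lyz*. These became 0.95, 0.86 and 0.81 over 13 libraries without control replicate 3 of 7 mpt. *ncf1* and *cybb* had an r of 0.93 (0.90 without that library). With *npsn* the r was 0.84 for *ncf4*, 0.82 for *ncf1*, 0.80 for *cybb*, 0.64 for *rac2* and 0.25 for *cyba*. In that order these were 0.63, 0.76, 0.70, 0.76 and 0.34 without that library. *rac2* with *mpx* had 0.72, and 0.86 without it. Centring by group left the division by letter in place among the *il11a*OE libraries of 7 mpt. There the M mean was 8.67 times the F mean for *mpx*, 11.5 times for *lyz* and 10.9 times for *npsn*. At 7 dpt *mpx* was highest in control replicate 2 and *il11a*OE replicate 1. *npsn* and *lyz* were highest in control replicate 1 and *il11a*OE replicate 2. The part of the letter in these r values was not tested. The points share libraries, depth and pool, so these values are descriptions only.

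Among 13186 genes with a mean of at least 1 CPM at each time point, the 5 whose pattern was most like that of *npsn* were *map4k2* (r = 0.96), *mpx* (0.95), *ARHGAP10* (0.93), *glipr1a* (0.92) and *BX908782.2* (0.92). For *mpx* they were *npsn*, *spg21* (0.93), *snx20* (0.93), *slc35a5* (0.91) and *si:dkey-261j15.2* (0.90), and for *cybb* they were *plxnc1* (0.96), *si:dkey-27h10.2* (0.95), *DOCK11* (0.95), *SGCB* (0.93) and *DGKZ* (0.93). With the 2 libraries farthest from the centre of each leading gene left out, the values ranged from 0.81 to 0.93 over 12 libraries. The remaining libraries were not centred anew, so those left out still shape these values. Spearman's rank correlation over the 14 libraries was between 0.78 and 0.96.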

How the data were processed

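Pooled uninjured hearts were sequenced as 3 libraries per genotype at 7 dpt and 4 at 7 mpt. The study's methods name fewer pools per group than the 7 mpt libraries analysed here, and all of these were kept. The authors used HISAT2 to align read pairs to GRCz11. Their deposited files give raw, unnormalized counts from featureCounts 2.0.0 on Ensembl 104 gene models, unstranded, without multi-mapping reads or reads on several genes. Per the file headers, fragments were counted at 7 dpt, and per the values single mates at 7 mpt, where 99.1% to 99.4% of nonzero counts are even. Of the reads or fragments, 67.9% to 75.5% were assigned to genes.

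From the deposited counts, genes were filtered with filterByExpr (met by control libraries alone where every one held 10 counts, scaled to the median library size), scaled with TMM and tested in edgeR 4.0.16 (R 4.3.3) with the quasi-likelihood method and robust dispersions. Each time point was fitted alone, with Benjamini-Hochberg adjustment over all genes and a threshold of 0.05. Contrasts between time points used 14 libraries and contrasts between letters 8. CPM used TMM-scaled library sizes, and log2 CPM a prior count of 0.5. Pools were the replicates, and those of a group differed by more than counting noise (chi-square per degree of freedom 52.9 to 370.1), so none was taken for a duplicate. Each of these choices was changed alone. The tool was replaced by DESeq2 1.42.0 or by limma-voom (limma 3.58.1, quality weights), and the scaling by DESeq2 size factors. The filter became 1 count in any library or 10 counts in all, and dispersions were made non-robust. The model was fitted to all 14 libraries, or with the letter or a replicate block added. Counts of 7 mpt were halved, and each library was left out in turn. The fits were tested on simulated counts. Symbols came from identifier and symbol pairs of the study's supplement and then from a reference name table, which gave 29399 of 32520 identifiers a symbol. The reference table names the *mpx* identifier EPX. The tables hold no per-sample column outside the analysed libraries.

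The genes named are the 9 members and, of the companion lists, *csf3a*, *csf3b*, every gene of a count of 5 or fewer, and otherwise the 4 of lowest p in either direction. *illr4*, *nox1* and *nox4* were named after their values were seen. A gene of the oxidase list is not reported here and was left out of that list and of the genes of similar pattern. The members and lists were chosen with earlier results of these data known. No sequence was available for these genes in the reference used here, and none is shown.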

Additional observations from a re-analysis of the deposited data

Results flagged for a closer look

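In 3 of 18 pairs of a gene and a 7 mpt group, 1 library lay far from the other 3 by Dixon's ratio, and all 3 were control replicate 3. The ratio flags about 1 in 20 groups by chance, but the spread of *npsn* at 7 mpt was known when these genes were listed, and *mpx* and *lyz* vary with it, so the values are a description and no test. *mpx* was at 30.3 CPM there, where the next control library was at 1.99 CPM. *lyz* was at 6.48 CPM, with the next at 0.170 CPM, and *npsn* at 103.5 CPM, with the next at 2.21 CPM. The pan-leukocyte sum of that library was 102 CPM and the highest of the other controls 89.1 CPM, and its macrophage sum was the lowest of the 4 controls. The source of the counts was not tested.

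The effect of *il11a*OE differed between the time points for 4 genes, *rac2* of the 9 and the rest from the other oxidase and granulocyte genes. Of all genes tested in this contrast, 4.41% were called in either direction, and the share among the other oxidase and granulocyte genes was little above that. It was greater at 7 mpt by 1.501 on the log2 scale for *rac2*, by 1.71 for *cebpb* and by 2.03 for *timp2b*. For *cfd* the difference was 2.07, with a fall at 7 dpt and a higher level at 7 mpt. The time points also differ in how reads were counted, and all 4 calls were kept with the counts of 7 mpt halved. With 1 library left out, the *rac2* call was lost in 9 of 14 fits and the *timp2b* call in 6 of 14. The time points are also separate sets of libraries, which cannot be told apart from time in these data.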

How the results depend on the processing

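Directions were kept in every fit of *ncf1*, *ncf4*, *cyba*, *cybb*, *rac2*, *mpx*, *npsn*, *csf3r* and *csf3a* that gave a value at 7 dpt and 7 mpt, and of *lyz* at 7 mpt. With all 14 libraries in one fit, 3437 genes were called at 7 dpt in place of 7318, and *ncf1* and *mpx* lost their calls there. Their shared dispersions then include the 7 mpt libraries. The number of the 9 genes called was 5 to 7 at 7 dpt and 5 to 9 at 7 mpt over the alternatives. With every library kept, these alternatives called 3437 to 8210 of all genes at 7 dpt and 4484 to 6901 at 7 mpt. Further oxidase genes called at 7 dpt numbered 3 in the fit of all 14 libraries, in place of 5, and 3 to 5 with 1 library left out, and those called at 7 mpt 1 to 3 with 1 left out.

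Genes of the 9 whose effect differed between time points numbered 1 in the analysis reported, 2 with DESeq2 (*rac2* and *cyba*), 0 with limma-voom, 0 with the replicate block and 0 to 3 with 1 library left out. The cause of these differences was not tested. Correlations of deviations between libraries of the same number ran from -0.05 to 0.17, and those of different numbers from -0.12 to 0.15. These values do not decide whether the numbers pair the libraries, and at 7 mpt the numbers also follow the letter. With the replicate block at 7 mpt, *mpx*, *lyz* and *npsn* passed the test (adjusted p = 0.0272, 0.0197 and 0.0132) and *csf3r* did not (0.0608), and *rac2* lost its call in the contrast of time points (0.0789). Depth limits *lyz* at 7 dpt (6 to 17 counts) and *csf3r* at 7 mpt (0 to 188 counts). At 7 mpt *lyz* and *csf3r* met the filter on low counts only through their *il11a*OE libraries.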
